A study of Homo sapiens with 13 samples.

Results

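The region described here is the neighbourhood of ZNF263 on chromosome 16 of human embryonic stem cells, a run of genes for zinc finger proteins around the gene that was knocked out. Its members are the called peaks of 7 deposited lists that overlap hg19 chromosome 16, 3160000 to 3500000. They were taken by position and not by score, under a rule chosen with earlier results of these data known. There were 68 such peaks among the 136141 peaks of all lists. Of the 68, 33 were H3K4me3 peaks (17 in wild type and 16 in knockout), 9 were H3K27ac peaks (5 and 4), 16 were H3K27me3 peaks (11 and 5) and 10 were FLAG peaks. The gene itself was taken to lie at about 3313700 to 3341500, an interval of 27.8 kb that is only approximate, since RefSeq gives ZNF263 a length of 17.9 kb.

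The cells were H1, also called WA01, a long-established line of human embryonic stem cells. Wild-type cells (WT) were compared with a homozygous ZNF263 knockout line labelled 1-10 (KO), which was made with Cas9 and is the only knockout line of the series, by chromatin immunoprecipitation with sequencing (ChIP-seq) for 3 histone marks. A FLAG antibody was used in KO cells that ectopically expressed a ZNF263-FLAG protein. The FLAG library therefore reports added protein in cells without their own ZNF263. The labels of 2 ChIP libraries made with an antibody to endogenous ZNF263 in WT cells name the same FLAG list as their processed data, and no source used here says if that list holds any of their reads. Of the 13 samples, 7 have a list of their own, with 1 library for each histone mark and genotype. A difference between WT and KO therefore has no replicate check and was not tested. The lists hold no read counts, so the depth is unknown. No source used here gives the position or length of the edit in ZNF263, so how much of the gene remains in KO is unknown. The stem cell identity of the lines was not checked, since no hg19 annotation was used to place peaks on marker genes.

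ZNF263 belongs to the C2H2 zinc finger proteins, the largest family of human transcription factors, in which repeated zinc-binding fingers read DNA. Many of these proteins also carry a SCAN domain, through which they pair with each other, or a KRAB domain, which recruits corepressors. Their genes often stand in clusters that grew by duplication. H3K4me3 marks promoters, H3K27ac marks active promoters and enhancers, and H3K27me3 is laid down by Polycomb. H3K4me3 and H3K27me3 together, called bivalent chromatin, are typical of silent but poised promoters in embryonic stem cells.

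All 6 named genes were found in the RefSeq table, in the order ZNF213, ZNF200, ZNF263, TIGD7, ZNF75A and ZNF174. ZNF213 and ZNF263 each encode a zinc finger protein with SCAN and KRAB domains, ZNF174 a SCAN zinc finger protein, ZNF75A a KRAB zinc finger protein and ZNF200 a zinc finger protein. TIGD7 stands apart, since it derives from a Tigger DNA transposon. From ZNF213 to ZNF174 the table lists 37 entries, of which 10 code for protein and 14 are tRNA genes. The 14 tRNA genes, with 3 tRNA pseudogenes and the olfactory receptor gene OR1F1, all lie between ZNF213 and ZNF200. MEFV, which encodes pyrin, lies between ZNF200 and ZNF263. The table belongs to the GRCh38.p14 assembly and the peaks to hg19, so it was used for the order of genes only, and no peak was assigned to a gene other than by the interval given for ZNF263.

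RefSeq promoters of 300 bases, 250 before to 50 after the start, were available for all 6 genes, with 2 entries for ZNF75A. The purine-rich letters GGAGGA, which resemble the DNA described for ZNF263, were searched on both strands (reverse complement TCCTCC) and stood in 1 of these 7 promoters, against 36.6% of all 35116 promoters of that length. The longer GGGAGGA (reverse complement TCCTCCC), which contains GGAGGA, stood in the same promoter and in 18.1% of all promoters. That promoter belongs to ZNF213. The promoter of ZNF263, the knocked-out gene, held neither, but held CCAAT or its reverse complement ATTGG at 5 positions. At least 5 matches were found in 0.359% of all promoters, and CCAAT, the letters of the classical CCAAT box, was searched after the sequence had been seen. The ZNF213 and ZNF174 promoters held 1 match each and the other 4 none, and 34.6% of all promoters held at least 1. The ZNF213 promoter is shown for its GGAGGA match and the ZNF263 promoter for its CCAAT matches. They are written 5′ to 3′ on the strand of the gene from RefSeq (GRCh38.p14), at chr16:3134779-3135078 on the plus strand for ZNF213 and chr16:3283241-3283540 on the plus strand for ZNF263, coordinates that cannot be compared with the hg19 positions of the peaks. Capitals mark TCCTCC in ZNF213, where the ATTGG at position 154, counted from 1 at the 5′ end, is left in lower case, and CCAAT or ATTGG in ZNF263, where the first 2 matches overlap.
ZNF213: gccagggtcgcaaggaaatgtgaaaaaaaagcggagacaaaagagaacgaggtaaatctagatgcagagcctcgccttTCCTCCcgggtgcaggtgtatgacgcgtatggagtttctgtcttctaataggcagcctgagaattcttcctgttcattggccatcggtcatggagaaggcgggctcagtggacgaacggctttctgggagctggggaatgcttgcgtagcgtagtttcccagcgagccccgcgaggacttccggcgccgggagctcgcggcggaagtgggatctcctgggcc
ZNF263: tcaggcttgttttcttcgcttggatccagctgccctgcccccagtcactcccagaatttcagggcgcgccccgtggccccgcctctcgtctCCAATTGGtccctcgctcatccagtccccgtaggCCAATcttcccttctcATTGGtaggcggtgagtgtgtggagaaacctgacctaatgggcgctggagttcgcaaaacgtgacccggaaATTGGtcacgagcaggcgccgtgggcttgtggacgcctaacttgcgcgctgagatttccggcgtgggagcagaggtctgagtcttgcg

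The promoters of TIGD7 and ZNF75A face away from each other and share 166 bases, and those of ZNF174 and ZSCAN32, a SCAN zinc finger gene next to it, share 290. GC content was 60.3% for ZNF263, 57.3% for ZNF213, 64% for ZNF200, 67% for TIGD7 and 66.7% for ZNF174. For ZNF75A it was 67.3% and 53.3%. The median of all promoters was 58.7%.

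The window was rich in peaks of every list, with little difference between the genotypes for H3K4me3. WT H3K4me3 covered 15.8% of it, against 3.40% of chromosome 16 and 2.72% of all chromosomes, and KO H3K4me3 15.4%. H3K27ac covered 3.18% in WT and 2.21% in KO, where the whole lists covered 1.35% and 1.38%. H3K27me3 covered 8.40% in WT and 4.99% in KO, against 1.74% and 1.68% for the whole lists. FLAG peaks covered 6.50%, against 3.56% of chromosome 16 and 1.76% of all chromosomes. Chromosome lengths were taken from the first to the last peak of any list.

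**Figure D1:**
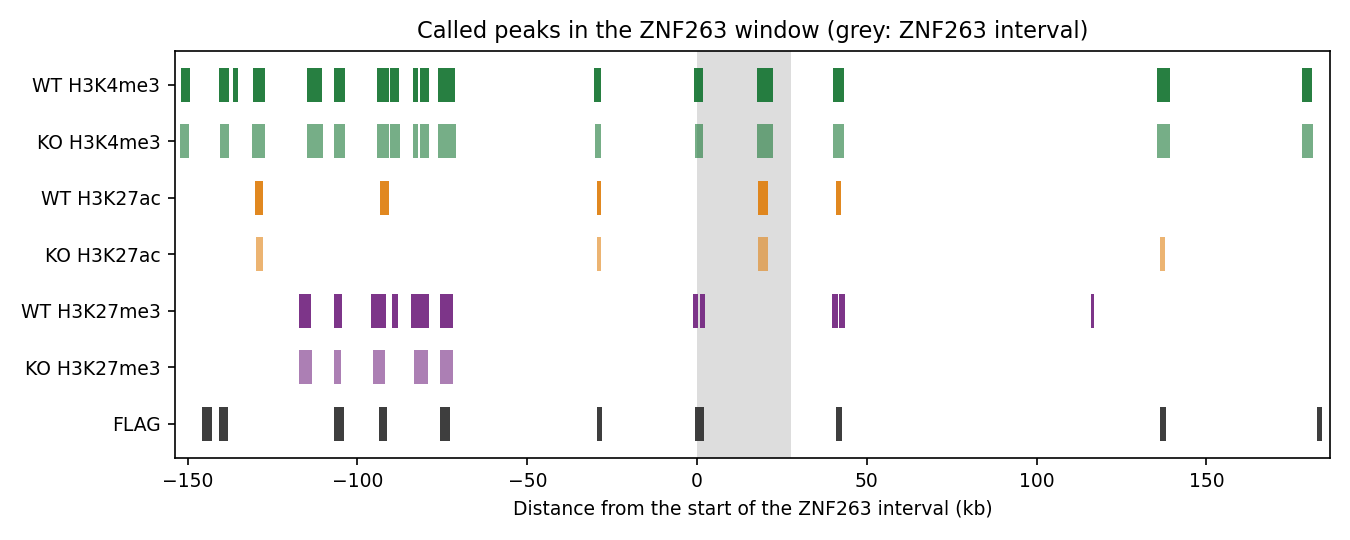
Called peaks of the 7 lists across the window, plotted as distance in kb from the start of the ZNF263 interval (grey), with 1 row per list and each bar drawn to the peak's width. H3K4me3 had 17 peaks in WT and 16 in KO, H3K27ac 5 and 4, H3K27me3 11 and 5, and the FLAG list 10.

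The ZNF263 interval still carried both active marks in KO. It was overlapped by 9 peaks, which were 2 H3K4me3 and 1 H3K27ac in each genotype, 2 H3K27me3 in WT, none in KO, and 1 FLAG peak. Inside the interval H3K4me3 lay at 3331393 to 3336184 in WT (4792 bp) and at 3331496 to 3336143 in KO (4648 bp), both with a score of 3100, which 42.9% of the WT list and 41.9% of the KO list reached or passed. H3K27ac lay on this site at 3331590 to 3334467 in WT (score 433) and at 3331783 to 3334469 in KO (score 843). These H3K27ac scores were the highest of the mark in the window, above 84.4% of the WT list and 94.8% of the KO list. The score is the authors' value for each peak, on a scale that no source used here states, and is read here only within its own list, so scores of WT and KO are set side by side without reading a change. The names of the H3K27ac and H3K27me3 lists carry a p-value cutoff, and the lowest score of each was 40. Those of the H3K4me3 and FLAG lists carry none, and their lowest scores were about 50. Weaker peaks could therefore enter the H3K27ac and H3K27me3 lists. No H3K27me3 and no FLAG peak lay on this site, and the nearest FLAG peaks were 15.6 kb below and 18.5 kb above the WT H3K4me3 peak.

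At the lower end of the interval the peaks were different. H3K4me3 lay at 3312905 to 3315485 in WT (score 2221) and at 3312975 to 3315522 in KO (score 2476). A FLAG peak at 3313212 to 3315785 (score 59.7) overlapped it. H3K27me3 was called there in WT only, as a pair of narrow peaks at 3312505 to 3313954 (score 46.1) and 3314513 to 3316038 (score 57.9). The nearest H3K27me3 peak of KO was 70.8 kb from the first of them. Both WT scores were close to the lowest of the list, 40. Because the interval is longer than the gene's RefSeq length, this site may lie outside ZNF263.

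**Figure D2:**
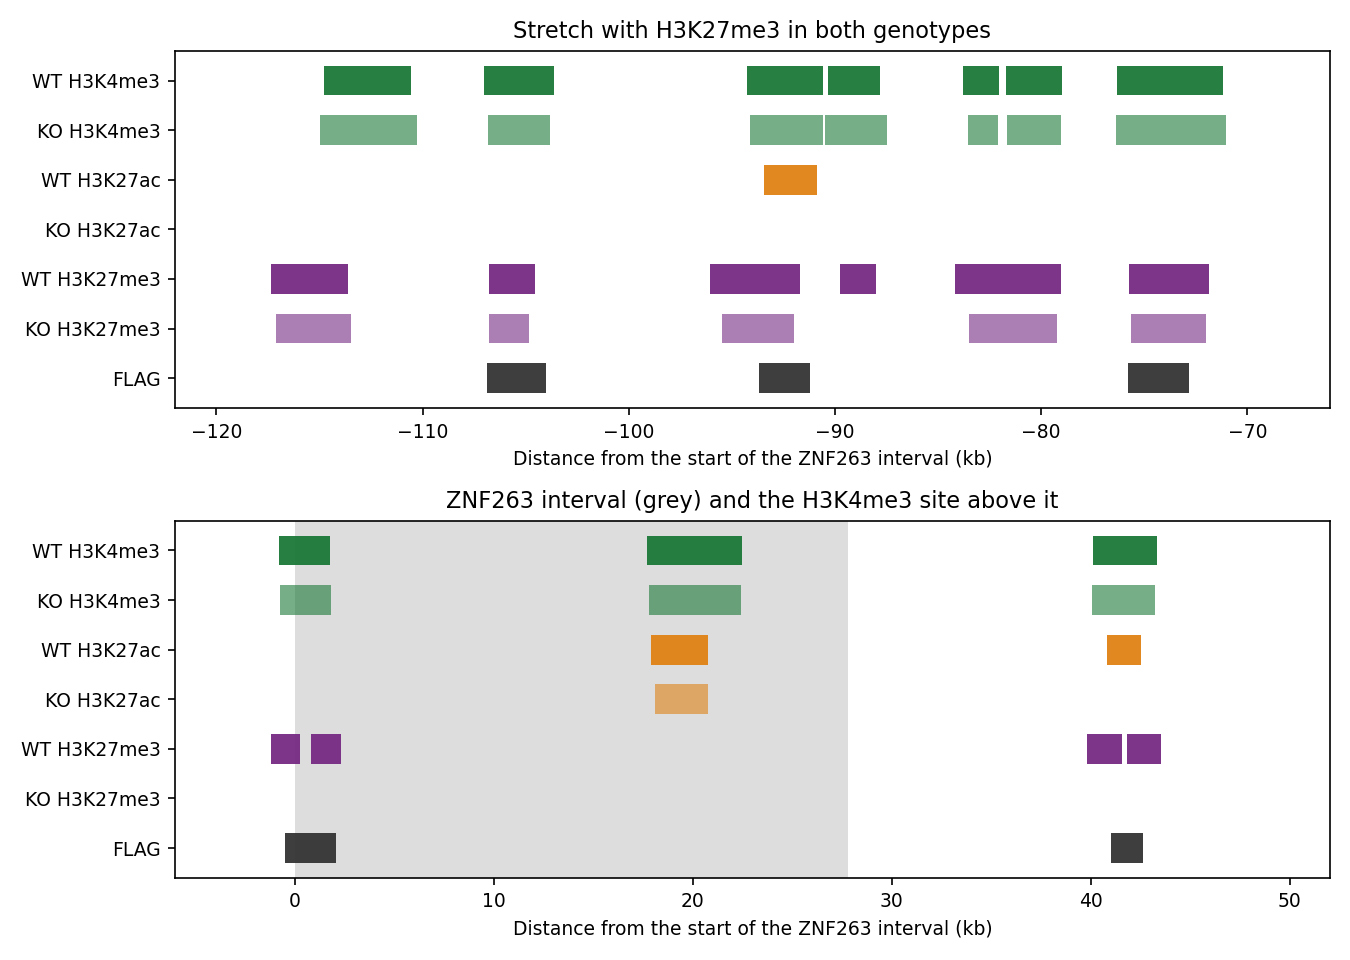
Peaks drawn to scale in 2 parts of the window, as distance in kb from the start of the ZNF263 interval (grey in the lower panel), with 1 row per list. The upper panel shows the stretch where H3K27me3 had 6 peaks in WT and 5 in KO, and the lower panel the interval with the next H3K4me3 site above it. In the interval H3K27me3 had 2 WT peaks and none in KO, while H3K4me3 and H3K27ac at about 20.1 kb had a peak in both.

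H3K4me3 formed 17 separate sites, of which 16 were called in both genotypes. Below the stretch with H3K27me3 there were 4 sites. The first was at 3161600 to 3164308 in WT (score 3100) and 3161374 to 3164185 in KO (2791), and the next at 3172835 to 3175786 (3100) and 3173187 to 3175804 (2746). Neither carried another mark, and the latter held the strongest FLAG peak of the window. The only H3K4me3 peak called in a single genotype was a WT peak of 1615 bp at 3177053 to 3178667 (score 67.2), 1.25 kb from the nearest KO peak. That is 1 of 17 WT peaks, where 12.3% of the whole WT list had no KO peak, and 0 of 16 KO peaks, where 7.30% of the KO list had no WT peak. The last of these sites, at 3182860 to 3186547 in WT and 3182702 to 3186535 in KO (both 3100), carried H3K27ac in both. H3K27ac lay there at 3183592 to 3185873 in WT (score 177) and 3183870 to 3185805 in KO (score 232).

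The next 7 sites lay within 43.9 kb, from 3198714 to 3242655. They were the part of the window where H3K4me3 and H3K27me3 peaks overlapped in both genotypes. Bivalent here means such an overlap by at least 1 bp. The marks came from separate libraries, so an overlap does not show both on the same nucleosomes or in the same cells. H3K4me3 was at 3198941 to 3203159 in WT and 3198714 to 3203442 in KO, and then at 3206663 to 3210078 and 3206857 to 3209888, all with a score of 3100. A pair of neighbouring sites followed, at 3219414 to 3223105 (3100) and 3223361 to 3225909 (1700) in WT, and at 3219581 to 3223128 (3093) and 3223197 to 3226211 (1123) in KO. Another pair was at 3229937 to 3231673 (868) and 3231982 to 3234722 (3100) in WT, and at 3230149 to 3231620 (724) and 3232038 to 3234681 (3100) in KO. The widest H3K4me3 peaks of the window closed the stretch, 5176 bp at 3237363 to 3242538 in WT and 5329 bp at 3237327 to 3242655 in KO (both 3100). The gap to the next H3K4me3 site was 40.8 kb.

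H3K27me3 peaks overlapped 6 of these 7 sites in both genotypes, at some of them only in part. The WT peaks were at 3196373 to 3200105 (score 962), 3206914 to 3209146 (553), 3217651 to 3221999 (1220), 3229527 to 3234675 (1742) and 3237969 to 3241836 (980). The KO peaks were at 3196600 to 3200218 (669), 3206910 to 3208865 (388), 3218241 to 3221693 (318), 3230211 to 3234495 (199) and 3238040 to 3241691 (571). All 5 KO H3K27me3 peaks of the window lay here, and each overlapped a WT peak. The peak from 3229527 in WT and its KO partner each spanned a pair of H3K4me3 sites. At the remaining site H3K27me3 was called in WT only, at 3223945 to 3225699 (score 66.6). H3K27ac had a peak in the stretch in WT only, a weak one at 3220282 to 3222848 (score 47.4), and the nearest KO H3K27ac peak was 34.5 kb away.

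Between this stretch and the interval stood a single site, with H3K4me3 at 3283441 to 3285558 in WT and 3283630 to 3285545 in KO (both 3100). H3K27ac was called in both genotypes, at 3284109 to 3285523 in WT (score 177) and 3284126 to 3285503 in KO (score 67.3). The former lay above 62.6% of its list and the latter above 28.8% of its list. A FLAG peak overlapped both.

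Above the interval were 3 sites. The first, 17.6 kb above the ZNF263 site, had H3K4me3 at 3353806 to 3357028 in WT and 3353742 to 3356908 in KO (both 3100), and a FLAG peak. In WT it carried all 3 marks, with H3K27ac at 3354536 to 3356216 (score 66.4) and H3K27me3 at 3353530 to 3355275 (score 46.2) and 3355507 to 3357237 (score 66.65). In KO only H3K4me3 was called there, the nearest H3K27ac peak being 19.3 kb and the nearest H3K27me3 peak 112 kb away. The second was at 3449239 to 3452869 in WT and 3449122 to 3453009 in KO (both 3100), also with a FLAG peak. There H3K27ac was called in KO only, at 3450014 to 3451517 (score 52.04). The nearest WT H3K27ac peak was 55.2 kb from that KO peak. The third, at 3491828 to 3494849 and 3491891 to 3494938 (both 3100), carried neither other mark. A WT H3K27me3 peak at 3429678 to 3430693 (score 42.7) lay 18.4 kb from the nearest H3K4me3 peak, the only histone peak of the window off H3K4me3.

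WT-only peaks numbered 6 of 11 for H3K27me3, against 21.6% of the whole WT list, and KO-only peaks 0 of 5, against 11.0% of the KO list. The WT H3K4me3 peaks starting at 3312905 and 3353806 each met 2 neighbouring WT-only H3K27me3 peaks, which count separately here. Merging peaks up to 1 kb apart left 9 WT H3K27me3 peaks, and the WT-only count was not repeated on merged peaks. With the longer WT list cut by score to the length of the KO list, the WT-only H3K27me3 peaks of the window numbered 3. The share of WT-only peaks over the cut list was not computed, so this count has no background beside it. H3K27ac had 2 WT-only peaks of 5 (24.6% of the WT list) and 1 KO-only peak of 4 (24.8% of the KO list). The bases covered by H3K27me3 in KO were 0.594 times those in WT in the window and 0.963 times in the whole lists. For H3K27ac these ratios were 0.693 and 1.02, and for H3K4me3 0.97 and 0.96.

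The H3K27me3 peaks of WT without a KO partner were its lowest-scoring ones in the window. The 6 WT-only peaks had scores from 42.7 to 66.65, and the 5 shared peaks from 553 to 1742. In the whole WT list, peaks with a score of 66.65 or less had no KO peak in 68.0% of 2159 cases, and those above it in 11.3% of 9747. The WT-only H3K27ac peaks, at 47.4 and 66.4, and the KO-only one, at 52.04, were likewise the weakest of their lists in the window. Of WT H3K27ac peaks with a score of 66.4 or less, 58.0% were WT-only over the whole list. The share that was KO-only among KO H3K27ac peaks up to 52.04 was 63.7%. The lists give no signal where no peak was called, so how much H3K27me3 or H3K27ac the other genotype had at these sites was not analysed here.

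**Figure D3:**
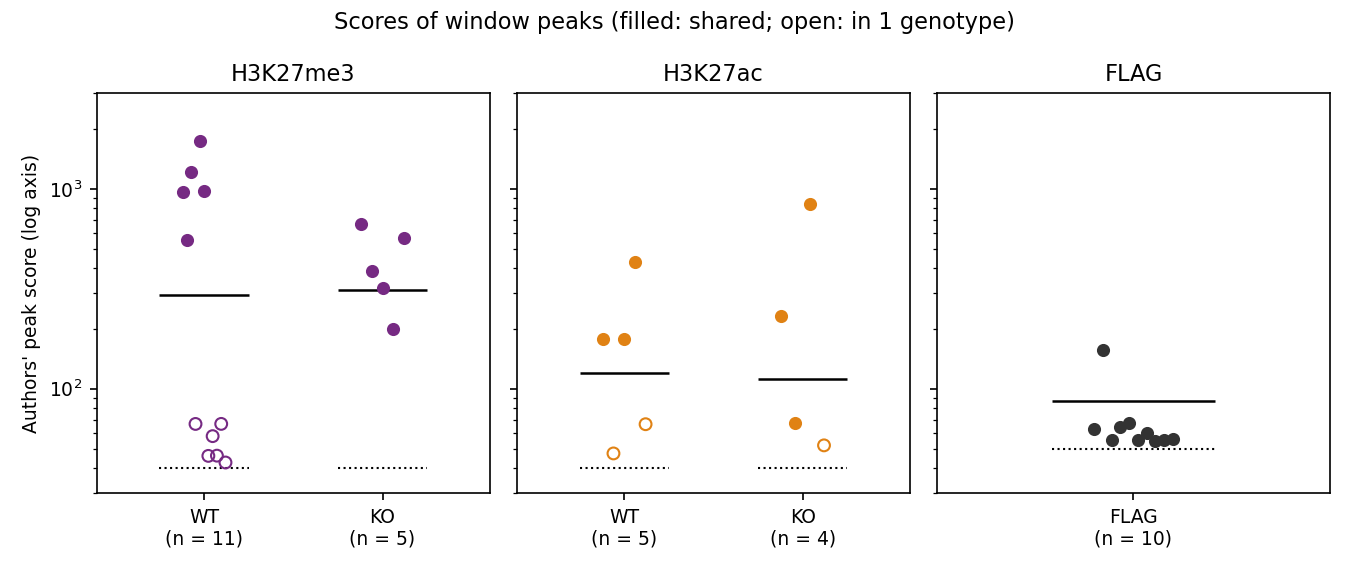
Authors' peak scores on a log axis for the window's H3K27me3, H3K27ac and FLAG peaks, by genotype, where filled points are peaks shared by WT and KO (all FLAG points are filled), open points are peaks of 1 genotype, solid lines are the medians of the whole lists and dotted lines their lowest scores. The 6 open WT H3K27me3 points sit between 42.7 and 66.65, below all 5 shared points, and 9 of 10 FLAG points sit under their list's median.

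Shared peaks of the window were nearly the same in extent for H3K4me3, and its few pairs of the other marks were narrower in KO. These widths come from 1 library per genotype, and the differences were not tested. The KO to WT ratio of width had a median of 0.985 over 16 H3K4me3 pairs (0.847 to 1.18), and 9 of them were narrower in KO, against 54.7% of all H3K4me3 pairs in which 1 WT peak met 1 KO peak. All 5 H3K27me3 pairs were narrower in KO, with ratios from 0.794 to 0.969. Of all H3K27me3 pairs 45.6% were narrower, and their median ratio was 1.01 (quartiles 0.933 and 1.1). The largest differences, -896 bp and -864 bp, were those of the KO peaks starting at 3218241 and 3230211. All 3 H3K27ac pairs were narrower too, with ratios from 0.848 to 0.974, against 43.4% of all H3K27ac pairs. The median ratio of all H3K27ac pairs was 1.02 (quartiles 0.931 and 1.13). For both marks some of the window's ratios lay between the quartiles of all pairs and some below them. For the ZNF263 site the H3K27ac ratio was 0.934 and the H3K4me3 ratio 0.97.

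**Figure D4:**
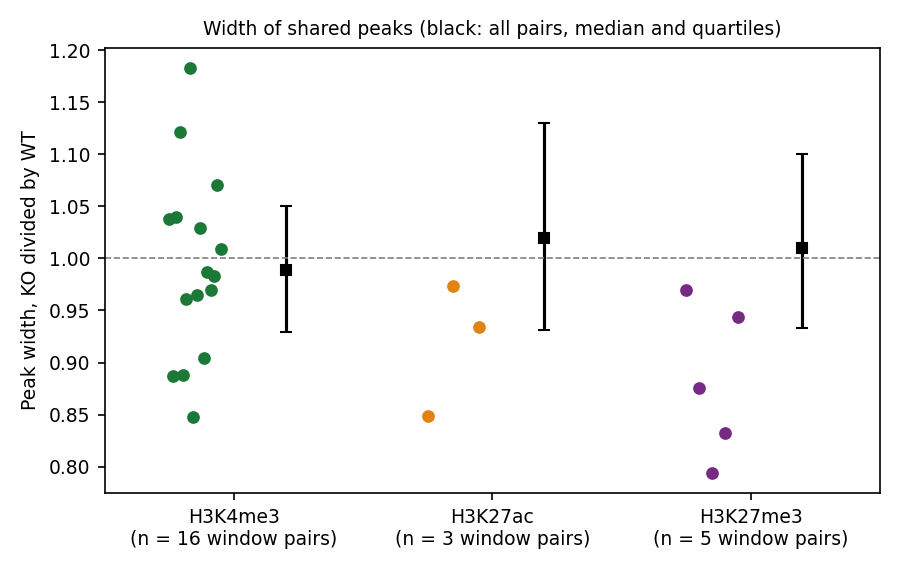
Width of each shared peak in KO divided by its width in WT, for the 16 H3K4me3, 3 H3K27ac and 5 H3K27me3 pairs of the window (coloured points), beside the median and quartiles of all pairs of the lists (black). The H3K27me3 points lie between 0.794 and 0.969, below the dashed line at a ratio of 1, and the H3K4me3 points lie on both sides of it.

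Combinations of marks at the H3K4me3 peaks followed from these calls. In WT, 9 of 17 H3K4me3 peaks overlapped H3K27me3 (33.4% of the WT list), 5 overlapped H3K27ac (42.6%), 2 overlapped both (4.69%) and 5 neither (28.7%). In KO, 6 of 16 overlapped H3K27me3 (30.7% of the KO list), 4 H3K27ac (41.4%), 0 both (2.84%) and 6 neither (30.7%). Of the 16 shared H3K4me3 peaks 5 had another combination in KO than in WT, against 17.1% of the 25125 shared peaks of the whole list. At 2 of the 5, those starting at 3223361 and 3312905, peaks were bivalent in WT and only H3K4me3 was called in KO. The 2 with all 3 marks called in WT were bivalent in KO at 3219414 and had only H3K4me3 called in KO at 3353806. The fifth, at 3449239, was the only one with an added call, H3K27ac. All 5 changes rested on peaks scoring from 46.1 to 66.65, in lists whose lowest score was 40. A missing call there does not show that the mark was absent.

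FLAG peaks of the window were weak and mostly on H3K4me3. Their scores ran from 54.9 to 67.1 except for the peak at 3172982 to 3175530 (score 157), which was above 76.4% of the FLAG list. The median of the 10 was 57.7, against 86.7 for the list, whose lowest score was 50. Of the 10, 8 overlapped an H3K4me3 peak in WT and the same number in KO, where the whole FLAG list had 50% (11484 of 22966 peaks) and 48.9%, and 6 lay wholly inside the WT H3K4me3 peak. H3K27me3 was overlapped by 5 in WT and 3 in KO (28.1% and 25.2% of the list), and H3K27ac by 3 and 2 (20.7% and 17.8%).

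The FLAG peaks on sites bivalent in both genotypes were at 3206849 to 3209705 (score 55.1), 3220042 to 3222484 (64.3) and 3237929 to 3240866 (67.1). Those on the sites above them were at 3284357 to 3285586 (55.5), at 3313212 to 3315785 as described for the lower end of the interval, at 3354724 to 3356325 (54.9) and at 3450098 to 3451666 (55.2). The other two, at 3167859 to 3170870 (62.6) and 3496331 to 3497656 (55.7), overlapped no histone peak and lay 1.97 and 1.48 kb from the nearest WT H3K4me3 peak. Peaks with no mark made up 47.2% of the FLAG list in WT and 48.2% in KO.

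From the side of H3K4me3, 8 of 17 WT peaks and 8 of 16 KO peaks held a FLAG peak, against 39.3% and 40.5% of the lists. Of the 8 shared H3K4me3 peaks with a FLAG peak, 4 had another combination of marks in KO, and of the 8 without, 1 had. Over the whole list the shares were alike, 16.6% of shared H3K4me3 peaks with a FLAG peak and 17.4% of those without, and the window's counts of 4 and 1 were not tested. The 4 were those at 3219414, 3312905, 3353806 and 3449239, all with FLAG scores between 54.9 and 64.3.

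At the edges of the window no peak crossed the limit. The nearest peaks outside were WT H3K4me3 at 3155112 to 3157714 (score 1743), 2.29 kb below the lower edge, and KO H3K27ac at 3506564 to 3509520 (score 435), 6.56 kb above the upper edge. The nearest peaks inside were the KO H3K4me3 peak starting at 3161374 and the FLAG peak ending at 3497656. The next WT H3K27me3 peak was 51.3 kb below the window and 664 kb above it.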

How the data were processed

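Peaks were mapped and called by the authors. Bowtie2, Picard and hg19 are named in the submitters' processing notes, without versions, and the names of the deposited peaks start with MACS. No source used here states the caller's version, which inputs it used or if libraries were pooled. A deposited list holds a position and the authors' score for each peak and has no header. Starts were converted to count from 1.

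The window and the ZNF263 interval were set by position. Members, gene lists and rules were chosen with earlier results of these data known. Peaks were shared when they overlapped by at least 1 bp, and every peak of the window was named. No test was made, since each mark had 1 library per genotype, and shares over whole lists stand beside the counts. Overlaps, tested on simulated data against bedtools 2.31.1, differed for 0 of 500 intervals. Tables were made in python 3.11.15 with numpy 2.4.6 and pandas 2.3.3, and plots with matplotlib 3.10.9. Alternatives were other overlap rules, lists cut to the upper 50% of scores or to equal length, and merged peaks. Protein sequences and marker genes were not analysed here.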

Additional observations from a re-analysis of the deposited data

How the results depend on the processing

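Of 75 alternatives for 26 counts or lengths of the window, 51 gave a like value (within 1.5 times) and 24 did not. An overlap of 50% of the smaller peak, a distance of up to 1 kb, merging and peaks wholly inside the window changed no value beyond that. Cutting the lists to the upper 50% of their scores removes weak peaks by construction. WT-only peaks then numbered 0 for H3K4me3, 1 for H3K27ac and 1 for H3K27me3, and KO-only H3K27ac peaks 0. FLAG peaks on H3K4me3 became 1 in WT and 1 in KO, and those on H3K27ac and H3K27me3 became 0 in both. Covered bases became 6575 for WT H3K27ac, 4623 for KO H3K27ac and 2549 for FLAG. Upper peaks set against complete lists left 0 WT-only peaks of each mark, 0 KO-only H3K27ac peaks, 1 FLAG peak on H3K4me3 in each genotype, and 0 on the other marks. With both lists of equal length, WT-only H3K27me3 peaks numbered 3 rather than 6, and the share over the cut list was not computed. Each histone peak of the window called in 1 genotype therefore lay in the lower 50% of its list. No paired analysis was possible because each group compared held 1 library.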
